A study of Mus musculus with 4 samples.

Results

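The genes described are *Skor1*, *Skor2*, *Ski*, *Skil*, *Dach1* and *Dach2*, which encode transcriptional corepressors that share the SKI/SNO/DAC domain. They were chosen by symbol, and all 6 were found once each among the 24421 genes of the expression table. RNA-seq was available for GFP+ cells sorted from E11.5 mouse neural tubes of 2 genotypes. Heterozygous controls carried 1 *Prdm13GFP* allele (*Prdm13GFP/+*, here Het) and homozygous mutants carried it on both chromosomes (*Prdm13GFP/GFP*, here Homo). Every embryo therefore had at least 1 GFP allele, and wild-type cells were not analysed here. GFP is inserted at *Prdm13* and marks cells of its lineage in the dorsal neural tube, so the sorted cells were selected by activity of the gene that was disrupted. RNA of 7 Het embryos formed 1 pool and RNA of 9 Homo embryos another, and 2 libraries were made from each pool. The libraries of a genotype are thus technical replicates, p-values compare the pools, and the spread between embryos is not part of any error given below.

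SKI and SnoN, the product of *Skil*, bind SMAD proteins and bring NCoR, SIN3 and histone deacetylases to their targets, which dampens the response to TGF-β and related ligands. The SKOR proteins are relatives found mainly in the nervous system. SKOR1 works with the homeodomain factor LBX1 in late-born dorsal interneurons of the spinal cord, and SKOR2 is best known from Purkinje cells of the cerebellum. DACH proteins are the vertebrate relatives of fly Dachshund and act with EYA phosphatases and homeodomain proteins in eye, ear and muscle development. PRDM13 is a zinc-finger protein that represses the activity of bHLH activators such as PTF1A in the dorsal neural tube.

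Reads on genes, as recovered from the steps of the RPKM values, summed to 12049738 (Het 1), 19153869 (Het 2), 17060449 (Homo 1) and 14427946 (Homo 2). Genes whose reads could not be recovered, such as *Tubb3*, are not in these sums. In each library 11774 to 11831 genes had an RPKM of at least 1. RPKM divides the reads of a gene by its exon length and by the size of the library, so it allows levels to be compared between genes. *Prdm13* itself was at 114 and 127 RPKM in Het and at 310 and 324 RPKM in Homo, a mean 2.63-fold higher. Transcript of the disrupted allele is still counted, so this value separates the genotypes but does not measure intact *Prdm13* mRNA. Genes were compared on log2(RPKM + 0.1) with limma, and a gene was called at a Benjamini-Hochberg adjusted p under 0.05 together with a difference of at least 1.5-fold on that scale. By this rule 762 of 12046 genes tested were called in either direction (6.33%), and 322 were called lower in Homo (2.67%).

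The 6 genes covered a wide range of levels in these cells, and their order was the same in both genotypes. *Skor1* was highest, with a mean of 64.6 ± 6.78 RPKM in Het (SD, n = 2 libraries, as for all values below). It was followed by *Skil* at 38.1 ± 0.136, *Ski* at 24.7 ± 0.799, *Dach1* at 20.0 ± 0.240, *Skor2* at 8.98 ± 0.956 and *Dach2* at 0.845 ± 0.0323 RPKM. No neighbours in this order overlapped in their library values in Het. In Homo the means were 44.3 ± 1.46 for *Skor1*, 33.6 ± 0.572 for *Skil*, 24.3 ± 0.583 for *Ski*, 18.5 ± 0.277 for *Dach1*, 2.77 ± 0.203 for *Skor2* and 0.751 ± 0.110 RPKM for *Dach2*, again with no overlap between neighbours. All 6 means were lower in Homo. For 4 of them the libraries of the genotypes did not overlap, which was also true of 62.1% of all genes tested. One member, *Skor2*, was called, 1 was short of the filter of 1 RPKM (*Dach2*), and 3 of the 5 tested were lower at the adjusted p alone, against 9.95% of all genes tested that were lower at that threshold. That count of 3 was 2 without either Het library and 1, *Skor2*, without either Homo library. The median log2 difference of the 5 tested was -0.18, and that of all genes tested was 0.010.

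**Figure D1:**
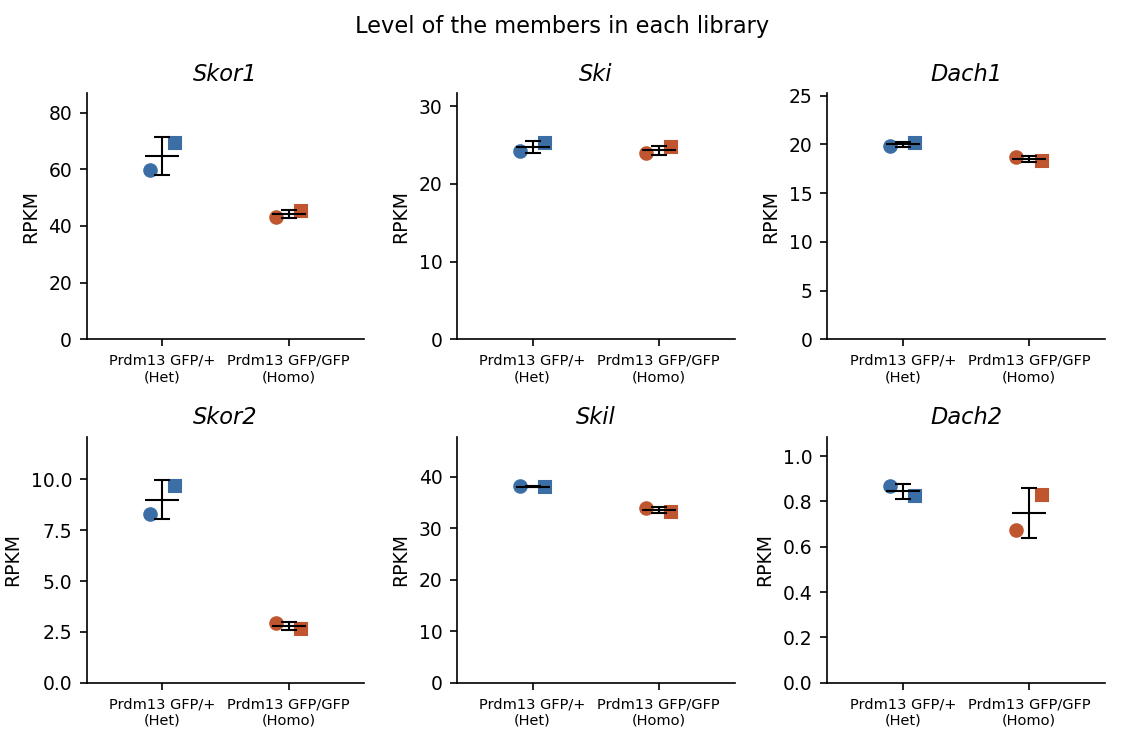
RPKM of each gene (vertical axis, from 0) in the 2 libraries of each genotype (circles, replicate 1; squares, replicate 2; blue, Het; orange, Homo), with the mean and SD in black. *Skor1* and *Skor2* are clearly separated between genotypes, *Skil* and *Dach1* by a narrow gap, and *Ski* and *Dach2* overlap.

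Promoter sequences are shown for the members at the ends of this range, *Skor1* and *Dach2*, because the E-box (CANNTG, read on both strands, which for this palindromic pattern are the same) is the motif that bHLH factors bind. RefSeq promoters on GRCm38.p6 were matched for 4 of the 6 genes (*Skor1*, *Ski*, *Dach1* and *Dach2*), with 7 start sites in all. The window searched was the 250 bases before each start. The *Skor1* window lies at chr9:63148962-63149211 on the minus strand, and the *Dach2* stretch at chrX:113297260-113297495 on the plus strand, where it stops at the first base that RefSeq gives the gene. Both are written 5′ to 3′, and capitals mark an E-box.
Skor1: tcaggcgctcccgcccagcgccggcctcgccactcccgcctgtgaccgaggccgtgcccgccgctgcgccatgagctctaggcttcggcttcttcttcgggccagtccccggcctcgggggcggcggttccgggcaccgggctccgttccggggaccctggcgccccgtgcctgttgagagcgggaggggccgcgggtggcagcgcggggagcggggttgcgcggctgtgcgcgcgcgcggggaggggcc
Dach2: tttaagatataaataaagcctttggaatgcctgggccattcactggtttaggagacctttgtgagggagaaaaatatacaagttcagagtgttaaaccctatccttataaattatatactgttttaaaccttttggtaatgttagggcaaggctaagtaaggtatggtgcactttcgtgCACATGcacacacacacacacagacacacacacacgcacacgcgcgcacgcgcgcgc
The first sequence is rich in G and C (78.8%) and holds no E-box, nor do the windows of the other *Skor1* starts. The *Dach2* window runs to base 113297509, past the end of the printed stretch and into the gene as RefSeq gives it. It has 45.6% G and C over its 250 bases and holds 1 E-box, CACATG. This motif begins 71 bases before the end of the window and leads into a run of CA and CG repeats. The windows of *Ski* (87.6% G and C) and *Dach1* (54.8%) and of the second *Dach2* start hold none, whereas 66.2% of 32851 promoters of this length hold at least 1. The motif TGGGAA, searched on both strands as the core of the site of RBPJ, a partner of PTF1A, is absent from all 7 windows and present in 21.6% of all promoters. A match or its absence describes only these letters. The paper found most PRDM13 sites far from gene starts, and distal sequence was not searched here.

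*Skor1* (gene ID 207667, chr9:63138164-63148961, RefSeq on GRCm38, as are the positions below) was at 59.8 and 69.4 RPKM in the Het libraries and at 43.3 and 45.3 RPKM in the Homo libraries. Both Homo libraries were below both Het libraries, and the Homo mean was 68.5% of the Het mean. The log2 difference was -0.54 (SE 0.0763, 95% interval -0.72 to -0.36), with a limma adjusted p of 0.00505. The gene stopped short of the 1.5-fold minimum and was not called. It was called when Het replicate 1 was left out (-0.65, limma adjusted p = 0.00523), whereas the limma adjusted p was 0.0555 without Homo replicate 1 and 0.0606 without Homo replicate 2. Without the filter on RPKM it was 0.169. These values rest on 2633 and 4837 reads in Het and on 2674 and 2357 in Homo. The 2 Het libraries differed by more than counting error, with replicate 2 at 1.16 times replicate 1 (exact binomial test, two-sided, p = 6.97e-10), whereas the Homo libraries did not pass the same test at 1.05 times (exact binomial p = 0.101). In sorted bulk cells, fewer cells that express a gene and less RNA per cell cannot be told apart.

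*Skor2* (664805, chr18:76846733-76901064) fell the most of the 6. The paper already lists this gene as lower in the mutants, from the same libraries, so its call is not an independent result. Its levels were 8.31 and 9.66 RPKM in Het and 2.92 and 2.63 RPKM in Homo, with a wide gap between the genotypes. The Homo mean was 30.9% of the Het mean, or 3.24-fold lower. On the log2 scale the difference was -1.66 (SE 0.105, 95% interval -1.91 to -1.41), with a limma adjusted p of 0.000187. Leaving out any 1 library kept the call, but without the filter on RPKM the adjusted p was 0.0619. The values come from 302 and 556 reads in Het and 149 and 113 reads in Homo, so counting error is larger here than for *Skor1*. The Het libraries of *Skor2* differed in the same direction as those of *Skor1*, by 1.16 times (exact binomial p = 0.0355).

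**Figure D2:**
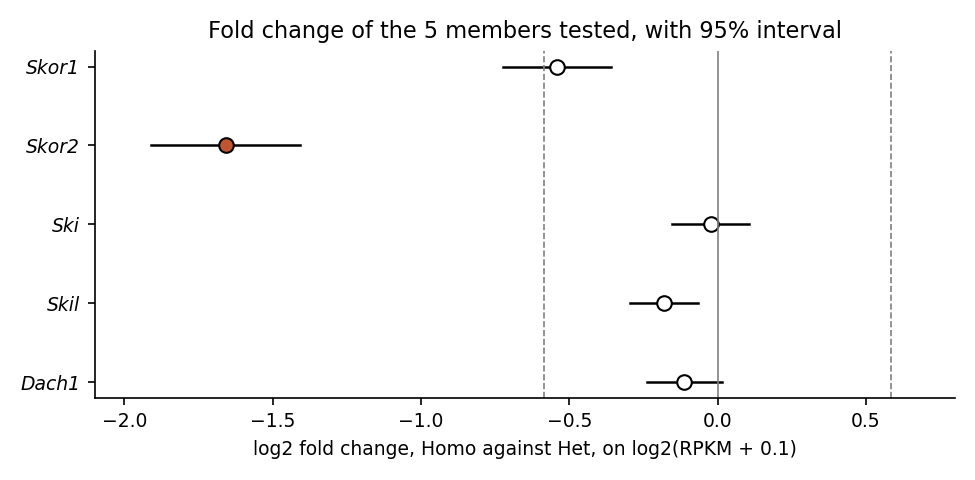
Log2 difference between Homo and Het (horizontal axis, on log2(RPKM + 0.1)) for the 5 genes tested, with 95% intervals from limma; dashed lines mark 1.5-fold and the filled point is the gene called. *Skor2* lies at -1.66, *Skor1* at -0.54 with an interval that spans the 1.5-fold line, and *Ski* at -0.023.

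The 2 *Skor* genes did not move by the same factor. The ratio of *Skor1* to *Skor2* RPKM was 7.20 and 7.19 in the Het libraries. With 302 and 556 *Skor2* reads there, so close a match is finer than counting error can resolve. In Homo the ratio was 14.8 and 17.2. *Skor2* thus made up 12.2% of the summed *Skor* level in each Het library, and 6.32 and 5.48% in the Homo libraries. The log2 ratio of *Skor2* to *Skor1* differed by -1.12 between Homo and Het. An exact permutation test over the libraries (two-sided) gave p = 0.333, the smallest that 2 against 2 allows, so this test cannot place the difference under 0.05.

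*Lbx1*, the homeodomain partner of SKOR1, was at 89.3 and 106 RPKM in Het and at 59.7 and 68.1 RPKM in Homo. Both Homo libraries were below both Het libraries, and the gene was called lower (log2 difference -0.61, limma adjusted p = 0.00759). The call was lost without Het replicate 2 (-0.49, limma adjusted p = 0.0527) and without Homo replicate 1 (-0.51, limma adjusted p = 0.0653). The ratio of *Skor1* to *Lbx1* was 0.670 and 0.655 in Het and 0.725 and 0.665 in Homo. The genotypes overlapped in this ratio, and on the log2 scale it was 0.068 higher in Homo (exact permutation test, two-sided, p = 0.667). Between the Het libraries, replicate 2 was the higher for all 3 of *Skor1*, *Skor2* and *Lbx1*. This was not particular to them. Replicate 2 was also the higher for *Prdm13* (114 and 127 RPKM) and *Pax2* (106 and 119 RPKM). For *Gad1* it was the lower (28.0 and 26.3 RPKM).

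**Figure D3:**
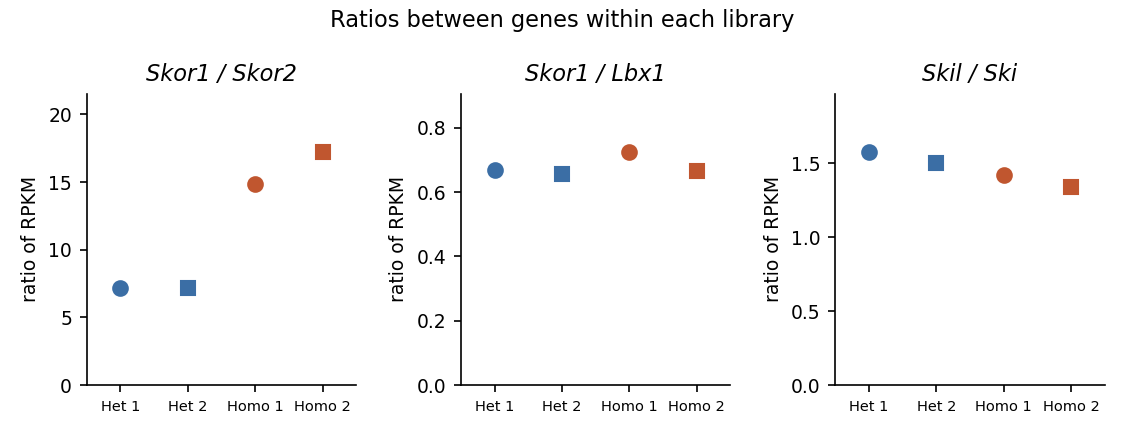
Ratio of RPKM between 2 genes (vertical axis, from 0) in each of the 4 libraries (circles, replicate 1; squares, replicate 2; blue, Het; orange, Homo). *Skor1* over *Skor2* is 7.20 and 7.19 in Het and 14.8 and 17.2 in Homo, *Skor1* over *Lbx1* stays between 0.655 and 0.725, and *Skil* over *Ski* has means of 1.54 in Het and 1.38 in Homo.

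*Ski* (20481, chr4:155154075-155222535), the founding member of the family and a SMAD corepressor, was at 24.2 and 25.3 RPKM in Het and at 23.9 and 24.8 RPKM in Homo. The genotypes overlapped. The log2 difference was -0.023, with a 95% interval of -0.15 to 0.11 that lies within the 1.5-fold limits (limma adjusted p = 0.802). Its sign turned without Het replicate 2 (0.010) and without Homo replicate 1 (0.0016), so it has no direction here. Between 1529 and 2534 reads per library lay behind these values.

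*Skil* (20482, chr3:31095058-31122923) was at 38.2 and 38.0 RPKM in Het and at 34.0 and 33.2 RPKM in Homo, with both Homo libraries below the Het libraries. The Homo mean was 88.2% of the Het mean (log2 difference -0.18, SE 0.0477, 95% interval -0.29 to -0.066). It was lower at a limma adjusted p of 0.0435, but the interval does not reach 1.5-fold and the gene was not called. Leaving out any 1 library lifted the limma adjusted p to between 0.123 and 0.197, and it was also above 0.05 without a trend (0.1002) and without the filter (0.0817). The ratio of *Skil* to *Ski* was 1.54 ± 0.0552 in Het and 1.38 ± 0.0565 in Homo, with no overlap between the genotypes. No test was run on this ratio, and the levels of 62.1% of all genes tested did not overlap either. *Skil* is itself a target of TGF-β signalling, and its product is removed by ubiquitin ligases.

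*Dach1* (13134, chr14:97786846-98169765) was at 19.8 and 20.2 RPKM in Het and at 18.7 and 18.3 RPKM in Homo. The libraries did not overlap, but the gap of 1.13 RPKM was small and the test was not passed (log2 difference -0.11, 95% interval -0.24 to 0.014, limma adjusted p = 0.189). *Dach2* (93837, chrX:113297496-113836386) was close to the limit of what is usually taken as expression, at 0.868 and 0.822 RPKM in Het and 0.673 and 0.828 RPKM in Homo. It rests on 78 to 117 reads a library, the genotypes overlapped, and it was not tested because it fell under the filter. *Dach1* accounted for nearly all of the summed *Dach* level, which was 20.7 and 21.0 RPKM in Het and 19.4 and 19.1 RPKM in Homo.

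Summed by subfamily, the *Skor* pair changed its place in the family most. The *Skor* sum was 68.1 and 79.1 RPKM in Het and 46.2 and 48.0 RPKM in Homo, while the sum of *Ski* and *Skil* was 62.3 and 63.3 in Het and 57.9 in each Homo library. The *Skor* genes thus supplied 45.1 and 48.4% of the level of all 6 genes in Het and 37.4 and 38.4% in Homo. The order of these sums turned, with the *Skor* sum above the *Ski* sum in both Het libraries and below it in both Homo libraries. *Skida1*, another gene with this domain, was at 22.5 and 22.3 RPKM in Het and at 24.2 and 25.3 RPKM in Homo and was not called (log2 difference 0.14, limma adjusted p = 0.112).

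The partners of SKI and SnoN were mostly at similar levels in the genotypes. Of 8 *Smad* genes 7 were tested and none was called (median log2 difference -0.10, range -0.41 to 0.45), while 3 had an unadjusted limma p under 0.05, as did 34.1% of all genes tested. *Smad4*, the common SMAD of TGF-β and BMP signalling, was the highest at 51.1 and 51.9 RPKM in Het and 47.8 and 48.3 RPKM in Homo (limma adjusted p = 0.180). One *Smad* passed the adjusted p alone, a threshold that 19.7% of all genes tested passed in either direction. That gene was the inhibitory *Smad7* (5.55 and 6.45 RPKM in Het, 7.85 and 8.53 RPKM in Homo, log2 difference 0.45, limma adjusted p = 0.0214), and its adjusted p was 0.0510 to 0.173 when 1 library was left out. Of 12 TGF-β and BMP receptor genes 8 were tested and none was called (median 0.016), and 2 had an unadjusted limma p under 0.05. One passed the adjusted p alone, the activin receptor gene *Acvr2a* at 26.1 and 26.7 RPKM in Het and 34.98 and 33.7 RPKM in Homo (0.38, limma adjusted p = 0.00431). The log2 difference of *Acvr2a* was 0.35 to 0.41 when 1 library was left out. *Tgfbr2*, the type II receptor for TGF-β ligands, was under 1 RPKM in all 4 libraries (0.257 to 0.412 RPKM). *Smad7*, *Acvr2a* and *Tgfbr2*, like *Nedd4l* and *Tbl1x* below, were named after their values had been seen.

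All 5 ubiquitin ligase genes whose products act on SKI or SnoN were tested and none was called (median -0.0044), with 1 at an unadjusted limma p under 0.05. *Rnf111*, which encodes Arkadia, was at 23.3 and 22.2 RPKM in Het and 22.5 and 21.8 RPKM in Homo. *Nedd4l* alone in this list passed the adjusted p (10.9 and 10.96 RPKM in Het, 13.8 and 14.0 RPKM in Homo, log2 difference 0.34, limma adjusted p = 0.00858), and its adjusted p was 0.0600 to 0.0863 when 1 library was left out. The 15 genes for NCoR, SIN3 and histone deacetylase subunits were all tested and none was called, with a median of -0.016 and a range of -0.41 to 0.16, and 4 had an unadjusted limma p under 0.05. With limma voom on the recovered reads, 0 genes of these 4 partner lists were called. *Hdac2*, a histone deacetylase, led the list at 220 and 208 RPKM in Het and 213 and 210 RPKM in Homo, and the genotypes overlapped. *Tbl1x*, a subunit of the NCoR complex, was the gene of this list to pass the adjusted p (31.5 and 31.1 RPKM in Het, 23.9 and 23.2 RPKM in Homo, log2 difference -0.41, limma adjusted p = 0.00311). The log2 difference of *Tbl1x* was -0.43 to -0.39 when 1 library was left out.

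Of 9 genes for partners of DACH proteins, 5 were tested (median -0.091), and 1 was called in each direction. Over all genes tested, 6.33% were called in either direction. *Eya2* rose from 17.5 and 17.8 RPKM in Het to 29.5 and 29.8 RPKM in Homo (log2 difference 0.74, limma adjusted p = 0.000264). *Eya1* fell from 2.92 and 3.03 RPKM in Het to 1.56 and 1.68 RPKM in Homo (-0.84, limma adjusted p = 0.00659). Both encode transcriptional coactivators with phosphatase activity, and both calls were kept when any 1 library was left out. *Six5*, a homeobox gene of this list, was at 10.4 and 12.5 RPKM in Het and 12.1 and 13.3 RPKM in Homo, with overlap between the genotypes.

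**Figure D4:**
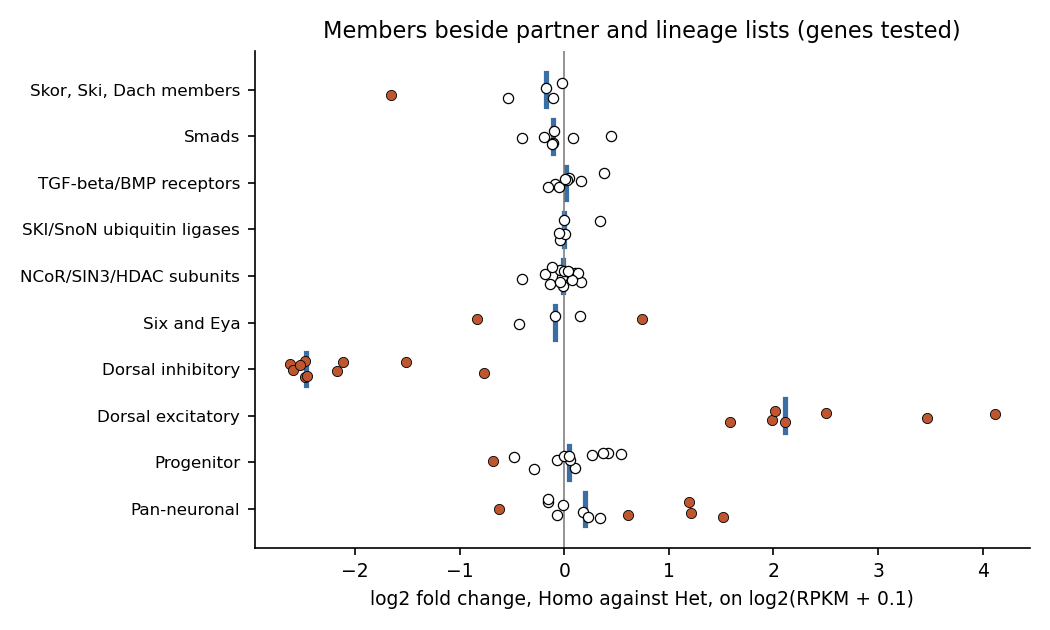
Log2 difference between Homo and Het (horizontal axis, on log2(RPKM + 0.1)) of each gene tested in the family and in lists of partner and lineage genes (rows); filled points are genes called, blue bars the medians, and vertical scatter within a row only separates points. The partner lists centre near 0, the inhibitory list at -2.47 and the excitatory list at 2.11, and *Skor2* is the filled point of the top row.

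The sorted cells differed strongly in their lineage genes, which moved beside the *Skor* genes. All 10 genes of the dorsal inhibitory lineage were called lower (median log2 difference -2.47), with a summed level of 607 and 647 RPKM in Het and 132 and 137 RPKM in Homo. *Pax2*, a homeodomain factor of inhibitory interneurons, went from 106 and 119 RPKM to 17.7 and 18.6 RPKM. All 7 genes of the excitatory lineage were called higher (median 2.11), with sums of 30.4 and 33.3 RPKM in Het and 195 and 201 RPKM in Homo. Most genes of both lists are among those that the paper reports as changed in the same libraries. Their calls were thus known beforehand and describe the sorted cells only. *Skor2* was 1.37 and 1.49% of the inhibitory sum in Het and 2.22 and 1.92% in Homo, so it was lowered by less than that sum. *Skor1* was 9.86 and 10.7% of the same sum in Het and 32.8 and 33.0% in Homo. The part of the lineage difference in the lower *Skor* levels was not tested.

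Of 12 progenitor genes all were tested and 1 was called lower, *Sox1*, a SoxB1 factor, at 14.0 and 15.2 RPKM in Het and 9.02 and 9.05 RPKM in Homo. The median of that list was 0.049, with a range of -0.68 to 0.54, and its sums ran from 2521 to 2629 RPKM. At the adjusted p alone 7 of these genes passed, a threshold that 19.7% of all genes tested passed in either direction. They went both ways, with *Sox2* (-0.48) among the lower and *Sox3* (0.54) among the higher. Of 12 pan-neuronal genes 4 were called higher and 1 lower (median 0.20), with sums of 1995 and 2055 RPKM in Het and 2534 and 2647 RPKM in Homo. *Gap43*, a growth cone gene among them, was at 61.4 and 60.6 RPKM in Het and 138 and 142 RPKM in Homo. The gene called lower, *Snap25*, was at 24.4 and 23.7 RPKM in Het and 15.4 and 15.6 RPKM in Homo. At the adjusted p alone 8 genes of this list passed. Of 10 genes of dorsal root ganglion, neural crest and glia 3 were tested (median 0.26), with 1 called higher (*Ngfr*) and 1 lower (*Foxd3*). The call of *Ngfr* was lost without Het replicate 1 (0.48) and without Homo replicate 2 (0.54), and that of the neuronal gene *Stmn2*, one of the 4 above, without Homo replicate 1 (0.58). The sums of the ganglion, crest and glia list were 31.4 and 38.7 RPKM in Het and 37.5 and 41.2 RPKM in Homo, with overlap between the genotypes. *Sox10*, which defines crest and glia, was under 1 RPKM throughout (0.255 to 0.781 RPKM). The erythroid sums were 47.3 to 49.9 RPKM with 4 of 10 genes listed at 0, the endothelial sums 2.89 to 4.17 RPKM and the mesenchymal sums 3.67 to 5.44 RPKM. In these 3 lists 3, 1 and 1 genes were tested, and limma and limma voom called 0, with 0 at an unadjusted limma p under 0.05. The part of these other cell types in the *Skor* values was not tested.

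The 5 genes most like *Skor2* over the 4 libraries were found by the root mean square difference of centred log2(RPKM + 0.1) values. They were *Nrgn* (0.0767), *Syndig1l* (0.0773), *Clstn2* (0.0831), *Syndig1* (0.0896) and *Gbx2* (0.0921). This likeness follows largely from a similar difference between genotypes, since only 4 libraries enter it. *Nrgn*, which encodes the postsynaptic protein neurogranin, was at 6.48 and 7.47 RPKM in Het and 2.09 and 2.21 RPKM in Homo. *Gbx2*, a homeobox gene of the inhibitory list above, was at 74.1 and 77.7 RPKM in Het and 27.3 and 25.8 RPKM in Homo. *Clstn2*, a calsyntenin gene, was at 3.28 and 3.47 RPKM in Het and 1.09 and 1.08 RPKM in Homo, below *Skor2* in every library. *Syndig1l* rests on 12 to 62 reads a library.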

How the data were processed

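The authors aligned reads to mm10 with TopHat2 2.1.0, counted reads on exons of RefSeq genes with featureCounts, normalized by TMM with edgeR 3.6.8, and deposited RPKM values, which were used as they stand. Strand handling was not given in the sources used here, and no exon of a member overlaps an exon of another gene in GENCODE vM21. Whole reads were recovered from the RPKM steps for 99.6% of 19200 genes above 0, to within 0.002 reads plus rounding. The binomial tests rest on these reads and cover counting error only.

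The 12046 genes whose mean reached 1 RPKM in at least 1 genotype entered 1 limma fit (version 3.58.1, R 4.3.3; lmFit, then eBayes with a mean trend). It used the log2 of RPKM plus 0.1. Tests were two-sided, and p-values were adjusted by Benjamini-Hochberg over all 12046. The 0.1 makes fold changes of low genes too small. The fit was tested on simulated data. Tables and plots used Python 3.11.15, numpy 2.4.6, pandas 2.3.3, scipy 1.17.1 and matplotlib 3.10.9. The members and the gene lists were chosen with earlier results of these data known. A few genes are not reported here and were left out of the lists after values had been seen. Besides the members, genes named are some of those called in each list or among its 6 highest, *Prdm13*, and the 5 nearest to each member called. *Tgfbr2*, *Tbl1x* and *Sox3* lie outside this rule and were added once their values had been seen. The alternatives were other pseudocounts, filters, scalings and error models, limma voom on the recovered reads, the replicate number as a block, and leaving out each library.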

Additional observations from a re-analysis of the deposited data

How the results depend on the processing

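Of the 6 genes, *Skor2* alone was called under most alternatives, and its log2 difference stayed between -1.77 and -1.40. Without the filter on RPKM its adjusted p was 0.0619 at -1.66, and 0 members (4 at an unadjusted limma p under 0.05), 30 genes higher and 14 lower were called in the whole table, against 440 and 322. The cause was not tested. Without a minimum fold, 3 members were called, *Skor1* (-0.54) and *Skil* (-0.18) besides *Skor2*, among 1176 genes higher and 1199 lower. At that threshold *Skil* was lost without any 1 library (adjusted p 0.123 to 0.197) and *Skor1* without either Homo library (0.0555 and 0.0606). Leaving out 1 library in turn gave 1 to 2 members, 258 to 437 genes higher and 212 to 266 lower, the fewest without Homo replicate 2. *Skor1* ranged from -0.65 to -0.43 in these fits, with the call gained without Het replicate 1, and *Skor2* from -1.77 to -1.55. *Ski* ranged from -0.056 to 0.010 and was positive without Het replicate 2 (0.010) and without Homo replicate 1 (0.0016).

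Quantile normalization moved the median of the NCoR, SIN3 and HDAC list to -0.072 and of the pan-neuronal list to 0.14. A pseudocount of 1 RPKM, which shrinks folds of low genes, gave -2.29 for the inhibitory and 1.78 for the excitatory list. Leaving out single libraries gave -2.51 to -2.40 for the inhibitory list and -0.099 to 0.075 for the erythroid list. The same-numbered libraries of the genotypes share only a number, with a correlation of their deviations of 0.047. With the replicate number as a block, 459 genes were called higher and 342 lower, and 1 member was called. With 2 libraries of 1 pool each, differences between embryos could not be estimated. *Dach2*, under the filter on RPKM, had an adjusted p of 0.836 in the fit without it.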
